A study of Mus musculus with 6 samples.

Results

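The nuclear-encoded subunits of the mitochondrial respiratory chain and of ATP synthase were examined in muscle stem cells (MuSCs) sorted from injured mouse muscle, with and without resolvin D1 (RvD1). Members were taken from the deposited tables by symbol alone: Ndufa, Ndufb, Ndufc, Ndufs or Ndufv followed by a number, Uqcr followed by letters or digits, Cox4a to Cox8c with any number behind, and every symbol that starts with Atp5. Of the 49671 genes in the tables, 80 met this rule. The rule reads no measured value, but it was set with earlier results of these data known. They comprised 36 genes of complex I, 8 of complex III, 15 of complex IV, and 21 of complex V, of which 76 are protein coding and 4 are processed pseudogenes. Atp5s and Atp5sl share the Atp5 symbol although their products are not standard ATP synthase subunits, and Ndufa4, counted here with complex I by its symbol, is now assigned to complex IV. The rule left out Ndufab1, Ndufa4l2, Cox4i1, Cox4i2, Cox7a2l, cytochrome c, Cyc1, and the whole of complex II, which were read as separate lists.

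All mice were female C57BL/6 animals aged 4 to 6 months, and the labels name no transgene or deletion. Both tibialis anterior (TA) muscles were injured with 1.2% BaCl2, which destroys myofibers, at 50 μL per injection. In 3 mice RvD1, a lipid mediator derived from docosahexaenoic acid, was injected IP every day at 100 ng, and 3 mice received the vehicle, 0.1% ethanol. At day 3 after injury the 2 TA muscles of a mouse were pooled, and FACS retained cells that carried β1-integrin and CXCR4 and lacked Sca-1, CD45, CD11b, and Ter119. The labels add CD31 to the excluded markers, and the study's methods do not list it. Each mouse gave 1 library, so every value below has n = 3 mice per group unless another n is given. The only comparison in the design is RvD1 against vehicle.

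Complex I takes electrons from NADH, complex III passes them from ubiquinol to cytochrome c, and complex IV hands them to oxygen. The proton gradient that these complexes build drives ATP synthesis by complex V. Most subunits are encoded in the nucleus and imported into mitochondria, whereas a small set of core subunits is encoded by mitochondrial DNA. MuSCs leave quiescence after injury and enlarge their mitochondrial content as they activate, and several complex IV subunits have another isoform that is typical of differentiated heart and skeletal muscle.

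Libraries totaled between 16148026 and 28149176 expected counts, so that the floor of 3 counts stood at 0.107 to 0.186 CPM (counts relative to library size), which covers counting error alone. Of 12 markers of myogenic cells 11 were found. They summed to 3232 to 4012 TPM (a transcript level scaled for length and library) with RvD1 and to 2976 to 3319 TPM with vehicle. The sum shows myogenic transcripts and not stem cells as such. Over the 6 libraries Myog averaged 977 TPM, and Pax7, the MuSC marker stained in the study, 5.41 TPM. Markers of leukocytes summed to 40.0 to 61.8 TPM with RvD1 and 52.5 to 89.7 TPM with vehicle, with S100a9 and 1 of the 2 identifiers of Itgam at 0. Endothelial markers summed to 17.8 to 24.99 and 10.9 to 32.6 TPM, fibro-adipogenic markers to 970 to 2278 and 1110 to 1225 TPM, erythroid markers to 11.4 to 95.7 and 32.03 to 79.3 TPM, and mature myofiber markers other than members to 993 to 1662 and 1074 to 1346 TPM. By gene, 9 of 11 tested leukocyte markers had a negative log2 fold change (RvD1 over vehicle, edgeR), with a median of -0.44. Of these 11, 2 were lower at an unadjusted p under 0.05, against 1.64% of all genes tested. For 10 endothelial markers the median was -0.97 (8 negative), and for 3 erythroid markers it was -0.43 (3 negative). For 9 fibro-adipogenic markers it was 0.42 (1 negative), for 10 myofiber markers 0.03 (5 negative), and for the 11 myogenic markers 0.10 (3 negative). The negative fibro-adipogenic marker was Ly6a, at -0.62 (unadjusted p = 0.0141 in edgeR), the only one of its list under 0.05. The more abundant fibro-adipogenic markers varied by library, given for RvD1 replicates 1, 2, and 3 and then for vehicle. Dcn was at 450, 182, and 284 TPM and at 196, 203, and 225 TPM. Col1a1 was at 347, 92.6, and 192 TPM and at 118, 118, and 142 TPM. Col3a1 was at 806, 401, and 527 TPM and at 528, 456.5, and 459 TPM. Gsn was at 555, 234, and 251 TPM and at 299, 262, and 221 TPM. No marker had an adjusted p under 0.05. The part of these other cells in the results below was not tested. In bulk RNA, fewer cells of a type and less RNA per cell cannot be told apart. The 37 mitochondrial DNA genes are listed at 0 counts in every library, among them all 13 protein-coding ones (mt-Nd1, mt-Co1, mt-Atp6, and the rest), so the mitochondrially encoded partners of the members could not be compared.

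The subunit transcripts were short and abundant. A low-count filter in edgeR kept 74 of the 80 members among 14494 genes. Their median TPM was 418, against 14.9 for all genes tested, and 71 of the 74 lay above that general median. The top 10% of tested genes by TPM held 65 members, and the top 1% held 11. Effective length, the number of positions in a transcript where a read can start, had a median of 541 bases for the members and 2253 bases for all tested genes, and 60 members were under 1000 bases.

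Of the 6 members that did not pass the filter, Cox8c, the testis isoform of subunit 8, had 0 counts in every library, which allows up to 3 counts in each. Cox7b2, a testis isoform of subunit 7b, had 3 counts in vehicle replicate 1 and 0 elsewhere. The other 4 were the processed pseudogenes Atp5l-ps1, Atp5l-ps2, Atp5k-ps2, and Atp5l2-ps, whose largest expected count in a library was 9.28, for Atp5l2-ps. These copies resemble their parent genes, and RSEM divides reads that match several genes. Of the 74 tested members, 39 had a fractional expected count in at least 1 library and 35 had whole counts throughout (within 0.005). Exons of 27 tested members overlap those of another annotated gene, mostly on the opposite strand, and the library kit does not mark strand.

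Complex V held the highest levels. Atp5b, the catalytic β subunit of ATP synthase (chromosome 10, 128083273 to 128090391, GRCm38), had a mean of 4488 TPM over the 6 libraries and ranked 7 among all tested genes. Atp5g3, 1 of 3 genes for the same membrane-embedded c subunit, followed at 2491 TPM, and Atp5sl was the lowest tested gene of the complex at 15.4 TPM. Among tested genes of complex IV, levels ran from 1291 TPM for Cox8a to 3.50 TPM for Cox6b2, a testis isoform. In complex III they ran from 1104 TPM for Uqcr11, a small accessory subunit, to 320 TPM for Uqcrc2, a core protein of the complex. In complex I they ran from 1143 TPM for Ndufa4 to 97.9 TPM for Ndufb4, an accessory subunit of the membrane arm. The lowest values among tested genes of complex IV were those of tissue-restricted isoforms, and complexes I and III held no tested member below 97.9 TPM.

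Isoform pairs were compared within each library on log2(TPM + 0.1), by an exact sign permutation test over the 6 libraries (two-sided). In the 9 pairs with both genes past the filter the direction was the same in 6 of 6 libraries, and the p-value was 0.03125 for each, before and after Benjamini-Hochberg adjustment over all 11 pairs computed, which is the smallest this test can give. The other 2 pairs set Cox7b2 and Cox8c against their partners, and no test is given for them. Each muscle isoform was the minor gene of its pair. Cox6a2 was at 5.83, 3.49, and 4.74 TPM with RvD1 and 5.78, 5.12, and 3.30 TPM with vehicle. The ubiquitous Cox6a1 was at 888, 874, and 751 TPM and at 867, 911, and 854 TPM in the same libraries. The 2 genes did not overlap, and the log2 ratio of Cox6a1 over Cox6a2 averaged 7.51.

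Cox8b, the muscle isoform of subunit 8, was at 6.18, 2.60, and 1.94 TPM with RvD1 and at 4.2, 4.03, and 2.04 TPM with vehicle. Cox8a was at 1182, 1279, and 1175 TPM with RvD1 and at 1350.4, 1411, and 1346 TPM with vehicle. Cox8b was thus lower by 8.60 on the log2 scale, the widest gap among the muscle isoforms, with values of both groups interleaved. Cox7a1, the muscle isoform of subunit 7a, was the best expressed of the 3, at 14.3, 15.2, and 17.2 TPM with RvD1 and 11.6, 17.2, and 17.5 TPM with vehicle, and Cox7a2 exceeded it by 5.65 (log2).

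Of the isoforms known from other tissues, Cox6b2 averaged 3.50 TPM against 881 TPM for Cox6b1, a log2 ratio of 8.07. Cox4i2, the lung isoform of subunit 4, averaged 2.04 TPM against 1295 TPM for Cox4i1, a log2 ratio of 9.25. Ndufa4 exceeded its paralog Ndufa4l2 by 7.58. The c subunit of ATP synthase is encoded by 3 genes whose mature proteins are alike, and their order was Atp5g3 at 2491 TPM, Atp5g1 at 1091 TPM, and Atp5g2 at 99.2 TPM, in 6 of 6 libraries. The log2 ratio of Atp5g1 was -1.20 over Atp5g3 and 3.46 over Atp5g2. No fold is given against Cox7b2 (mean 0.107 TPM) or Cox8c, which lay at or under the floor. Expected counts of Cox6a1, Cox7b, Atp5g1, and Atp5g2 were fractional in part, so reads shared with near-identical copies leave their levels less certain.

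**Figure D1:**
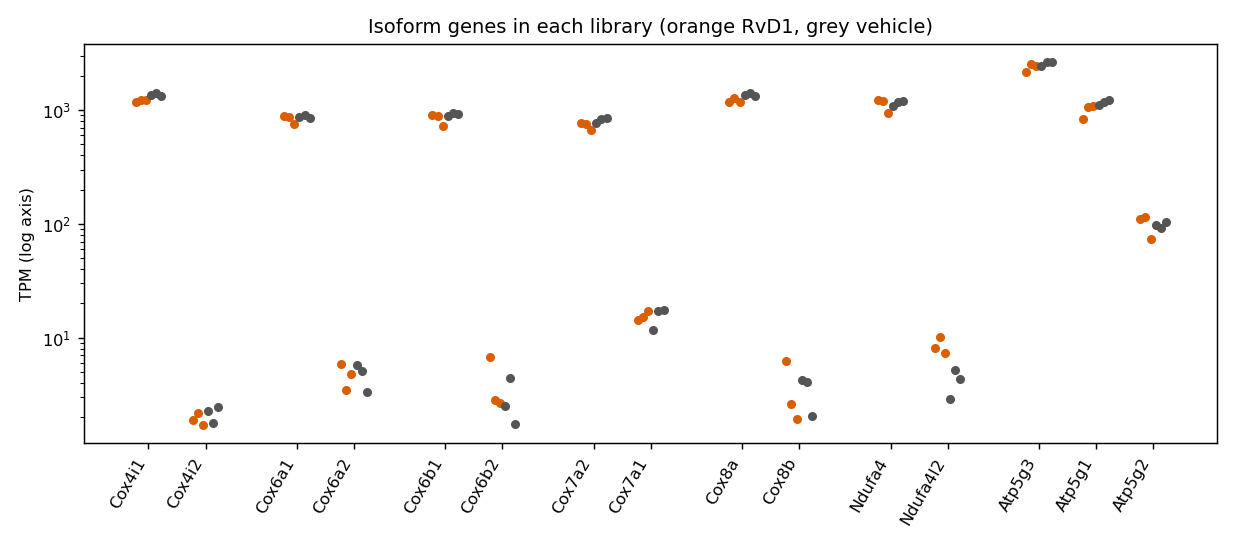
TPM on a log axis of each isoform gene in each library, 1 point per mouse, RvD1 in orange and vehicle in grey. The muscle isoforms Cox6a2, Cox7a1, and Cox8b lie between 1.94 and 17.5 TPM, below every value of Cox6a1, Cox7a2, and Cox8a.

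Between treatments, the ratios of the same 9 pairs are given mainly as values. With 3 mice per group the exact permutation test over the 20 label assignments (two-sided) cannot go below p = 0.1, so no pair could have passed 0.05. The Cox7a2 to Cox7a1 ratio was 5.55 ± 0.25 (log2, SD, n = 3) with RvD1 and 5.75 ± 0.26 with vehicle (exact permutation p = 0.6). The largest difference was that of Ndufa4 over Ndufa4l2, 7.03 ± 0.16 with RvD1 and 8.14 ± 0.35 with vehicle, at the smallest p possible (exact permutation p = 0.1, adjusted 0.9). Ndufa4l2, which is known as a hypoxia-induced paralog of Ndufa4, was at 8.15, 10.2, and 7.33 TPM with RvD1 and 2.91, 5.14, and 4.33 TPM with vehicle. Its groups did not overlap, its log2 fold change was 1.13 (SE 0.28), and its adjusted p was 0.971 (edgeR quasi-likelihood test, unadjusted p = 0.0031).

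The upstream sequences of a few subunit genes are shown because the ubiquitous and the muscle isoforms stood so far apart in level. RefSeq windows on GRCm38.p6, from 250 bases before to 50 after the annotated start, were found for 65 of the 76 protein-coding members. The following lines give 280 bases each, 5′ to 3′ on the gene's strand, ending 30 bases after the start. Capitals mark matches, on either strand, to the core letters of the NRF1 site (GCGCATGC), of the ETS site bound by GABPA (CCGGAAG, or CTTCCGG on the other strand), and to the TATA box (TATAAA). NRF1 and GABPA are the factors best known for control of respiratory chain genes.
Cox6a1, chr5:115348929-115349208, minus strand: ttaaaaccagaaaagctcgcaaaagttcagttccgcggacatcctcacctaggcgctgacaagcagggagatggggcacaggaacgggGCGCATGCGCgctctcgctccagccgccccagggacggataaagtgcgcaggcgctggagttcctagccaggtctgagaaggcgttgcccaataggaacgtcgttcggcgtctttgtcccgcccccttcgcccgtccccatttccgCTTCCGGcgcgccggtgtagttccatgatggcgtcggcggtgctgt
Cox8a, chr19:7217587-7217866, minus strand: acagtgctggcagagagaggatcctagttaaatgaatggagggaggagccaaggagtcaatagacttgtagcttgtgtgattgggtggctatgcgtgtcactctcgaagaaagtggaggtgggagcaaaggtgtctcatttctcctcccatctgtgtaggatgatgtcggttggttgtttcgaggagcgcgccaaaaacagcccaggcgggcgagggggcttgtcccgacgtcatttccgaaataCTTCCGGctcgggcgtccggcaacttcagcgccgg
Cox8b, chr7:140900417-140900696, minus strand: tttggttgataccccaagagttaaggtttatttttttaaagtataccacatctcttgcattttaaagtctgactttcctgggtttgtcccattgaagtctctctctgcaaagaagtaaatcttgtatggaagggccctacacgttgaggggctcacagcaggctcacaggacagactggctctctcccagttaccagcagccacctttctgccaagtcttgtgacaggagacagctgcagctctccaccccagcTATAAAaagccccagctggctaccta
Cox7a2, chr9:79759824-79760103, minus strand: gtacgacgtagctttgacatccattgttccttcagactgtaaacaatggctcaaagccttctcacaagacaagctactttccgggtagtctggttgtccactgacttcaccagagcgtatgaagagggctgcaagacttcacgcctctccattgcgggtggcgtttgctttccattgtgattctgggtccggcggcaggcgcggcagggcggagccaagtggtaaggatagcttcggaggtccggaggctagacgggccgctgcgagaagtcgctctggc
Cox7a1, chr7:30183921-30184200, plus strand: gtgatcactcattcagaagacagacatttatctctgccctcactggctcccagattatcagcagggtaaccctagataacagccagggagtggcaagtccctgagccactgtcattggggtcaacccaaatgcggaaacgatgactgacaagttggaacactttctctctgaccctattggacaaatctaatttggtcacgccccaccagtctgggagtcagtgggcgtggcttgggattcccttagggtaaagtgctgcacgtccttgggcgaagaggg
Atp5h, chr11:115419890-115420169, minus strand: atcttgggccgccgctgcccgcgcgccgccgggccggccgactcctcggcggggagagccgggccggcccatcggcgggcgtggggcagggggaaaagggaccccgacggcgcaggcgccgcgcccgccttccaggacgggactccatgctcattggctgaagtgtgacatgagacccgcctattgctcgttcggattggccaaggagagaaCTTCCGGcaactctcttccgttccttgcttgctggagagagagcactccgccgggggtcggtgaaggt

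Cox6a1 held an NRF1 core and an ETS core, Cox8a and Atp5h held the ETS core, and Cox8b held a TATA box just past its annotated start. Neither Cox7a2 nor its muscle partner Cox7a1 held any of these motifs. No window was found for Cox6a2, the muscle partner of Cox6a1. Over the 65 windows, the NRF1 core was found in 9 (13.8%), against 5.87% of 10178 tested genes with a window and 3.05% of all 27025 genes with one. The members were Atp5g2, Atp5k, Atp5l, Cox6a1, Ndufa11, Ndufa6, Ndufa8, Uqcr11, and Uqcrc1. The core of the YY1 site (AAGATGGC) was in 11 windows (16.9%, against 5.16% of tested genes), and the ESRRA site (AAGGTCA) in 7 (10.8%, against 3.76%). The ETS core was in 14 windows (21.5%, against 19.5% of tested genes) and the CCAAT box in 29 (44.6%, against 43.1%). The Sp1 box (GGGCGG) was in 25 windows (38.5%, against 69.0% of tested genes) and the TATA box in 7 (10.8%, against 8.97%). Both strands were searched throughout, a window could hold several motifs, and the median GC content was 57% for the members and 61% for tested genes. A match describes letters in the window, not a bound site.

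With RvD1, nearly all subunit transcripts had slightly lower fitted levels than with vehicle, and none of these differences passed the test for a single gene. The log2 fold change was negative in 71 of 74 tested members (95.9%), against 46.5% of all 14494 genes and 70.9% of genes under 1000 bases. The median was -0.14 for the members and 0.01 for all genes tested. By complex it was -0.14 in complex I (35 of 36 negative), -0.18 in complex III (8 of 8), -0.14 in complex IV (12 of 13), and -0.16 in complex V (16 of 17). Among the 70 members above 10 CPM with vehicle, the largest absolute log2 fold change was 0.32. On log2(TPM + 1), 64 of 74 were negative with a median of -0.08, against a median of 0.08 for all genes tested on that scale.

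At an adjusted p under 0.05 in the edgeR quasi-likelihood test with Benjamini-Hochberg adjustment, 0 of 74 members and 0% of all genes tested were called, and the smallest adjusted p of a member was 0.971. DESeq2 and limma-voom called 0 members as well. At an unadjusted p under 0.05, edgeR gave 14 members lower with RvD1 (18.9%), against 1.64% of all genes and 7.14% of genes under 1000 bases. It gave 0 members higher, against 1.83% and 0.952%. The 14 were Atp5o, Atp5h, Cox7a2, Cox8a, Ndufs8, Atp5c1, Atp5g1, Cox5a, Ndufa12, Ndufc2, Uqcrq, Ndufa11, Ndufs6, and Ndufa9, of which the last 6 are named because of their values. The 3 libraries of RvD1 all lay below the 3 of vehicle in 19 members (25.7%), against 4.83% of all genes and 14.3% of genes under 1000 bases, and the reverse held for 0 members, against 4.8% and 2.57%. The count of 14 varied with the library left out, as did the share of all genes. It was 0 without vehicle replicate 2 and 1 without vehicle replicate 3, against 0.731% and 0.676% of all genes. It was 6 without RvD1 replicate 3, 9 without RvD1 replicate 1, and 22 without RvD1 replicate 2, against 1.88%, 2.21%, and 2.79%. The limma-voom fit with sva gave 27 of 79 members, against 5.32% of all genes, and log2(TPM + 1) gave 2, against 1.08%. The 19 members without overlap became 41 without RvD1 replicate 2 and 54 without vehicle replicate 1. Smaller groups overlap less often by construction, and the share of all genes without overlap was not computed for these settings.

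**Figure D2:**
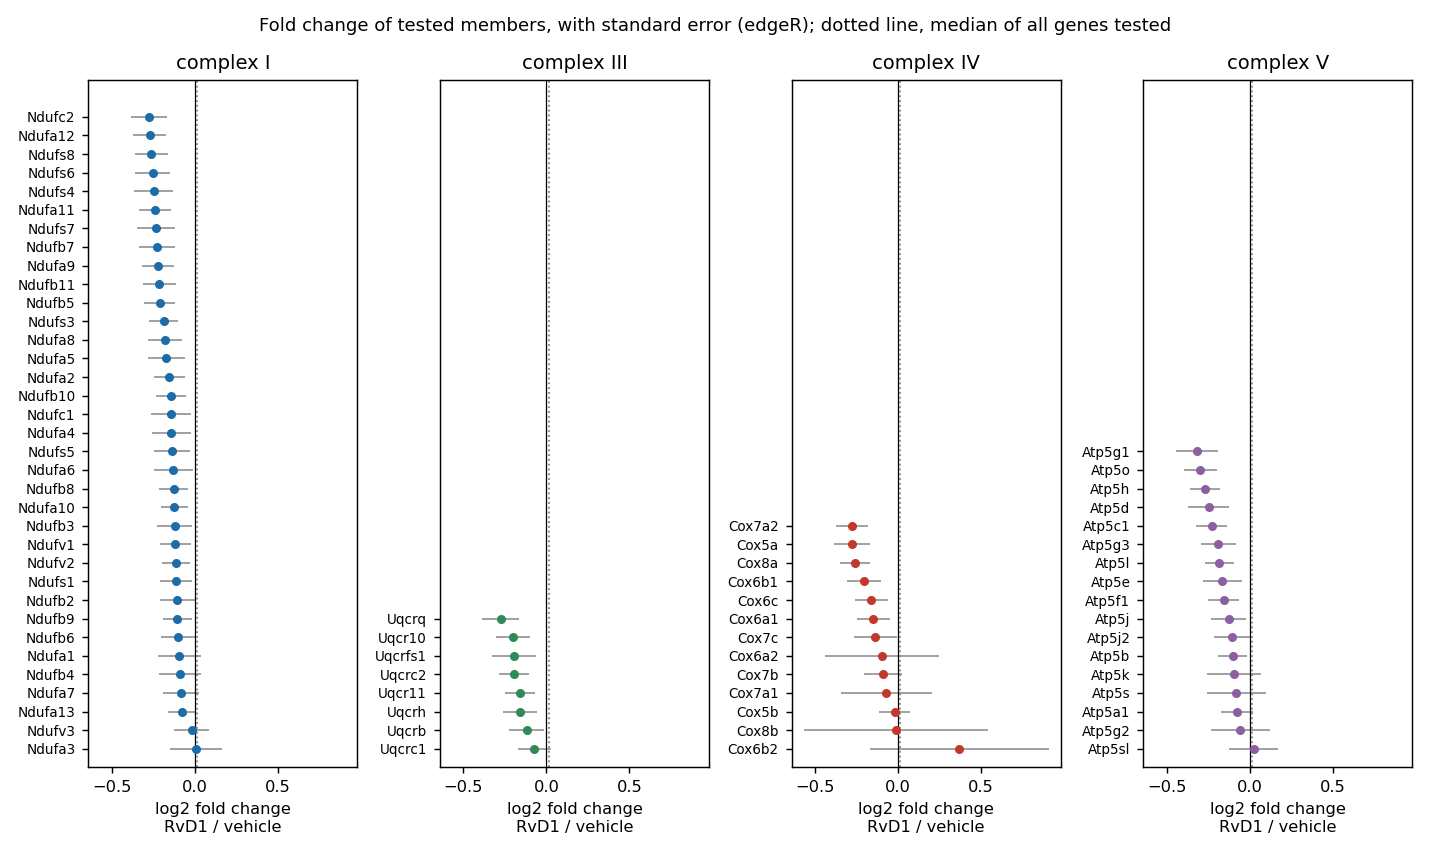
Fitted log2 fold change (RvD1 over vehicle, edgeR) of 73 tested members with its standard error, in 1 panel per complex, with the median of all tested genes (0.01) as a dotted line. Of 73 points 70 lie below 0, and the exceptions are Cox6b2, Atp5sl, and Ndufa3. With the length trend removed, 46 of all 74 tested members were below 0.

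The 2 groups were not cleanly apart. In log2 CPM relative to each gene's mean over the 6 libraries, the median member was at -0.12, 0.01, and -0.13 in the RvD1 libraries (replicates 1, 2, and 3 in order) and at -0.01, 0.14, and 0.14 in those of vehicle. RvD1 replicate 2 thus sat above vehicle replicate 1. The highest value of a member fell in vehicle replicate 2 or 3 for 64 of 74 genes, and the lowest in RvD1 replicate 1 or 3 for 69. The 2 low RvD1 libraries differed from each other in which members were low. Across the 74 members, Pearson's r between log2 effective length and the deviation was 0.66 in RvD1 replicate 3 and -0.34 in RvD1 replicate 1, while it lay between -0.21 and 0.21 in the other 4 libraries. Members share these libraries and are not independent replicates, so r is given as a description. The shortest members, those under 500 bases, were at a median of -0.24 in RvD1 replicate 3 and -0.03 in RvD1 replicate 1.

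**Figure D3:**
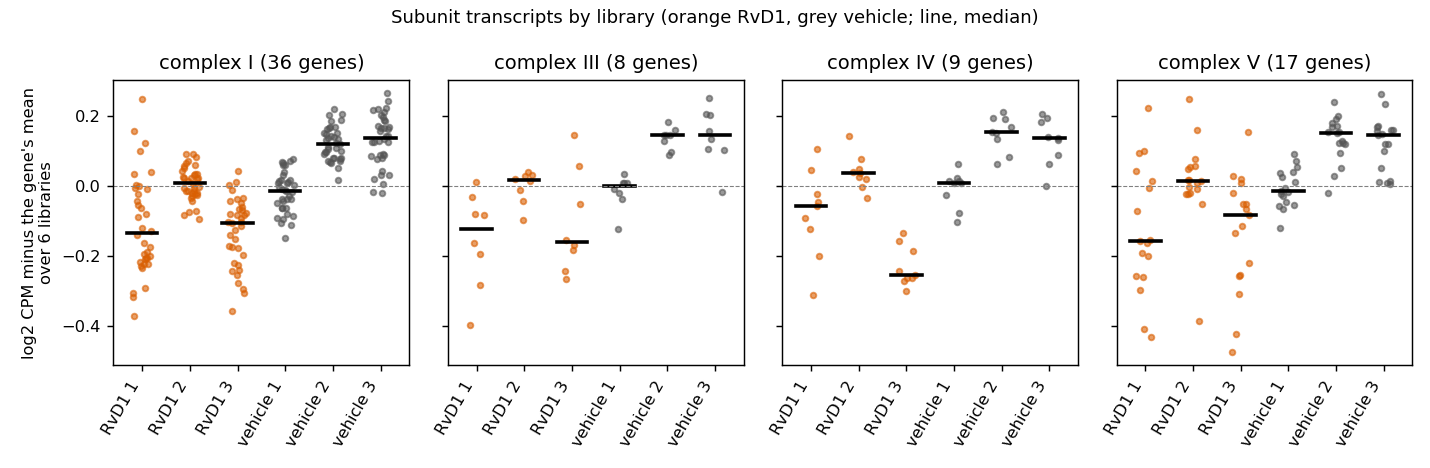
Log2 CPM of each member minus its mean over the 6 libraries, in 1 panel per complex, for the 70 members above 10 CPM with vehicle. Each point is a gene and each bar the median. Vehicle replicates 2 and 3 are highest in all panels, RvD1 replicates 1 and 3 lowest, and RvD1 replicate 2 and vehicle replicate 1 lie near 0.

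Short transcripts in general had fold changes of the same sign. The median log2 fold change over all tested genes was -0.14 under 500 bases, -0.12 from 500 to 1000 bases, -0.03 from 1000 to 2000, 0.04 from 2000 to 4000, and 0.10 above. In the same classes the members had medians of -0.14 (33 genes), -0.19 (27 genes), -0.12 (12 genes), and -0.09 (2 genes), with none above 4000 bases. The 2040 tested genes under 1000 bases that are not members had a median of -0.12. All tested genes of 500 to 1000 bases deviated by -0.10, -0.01, and -0.05 in RvD1 replicates 1, 2, and 3. In vehicle they deviated by 0.02, 0.10, and 0.10. Those under 500 bases deviated by -0.04, 0.05, and -0.19 in the RvD1 replicates and by 0.001, 0.10, and 0.14 in vehicle. The relation of these values to those of the members was not tested. When the trend of log2 CPM with length was removed within each library, an alternative chosen after seeing the data, 46 of 74 members were negative with a median of -0.01, and 0 had an unadjusted p under 0.05. That adjustment also takes away any treatment difference shared by all transcripts of a length.

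**Figure D4:**
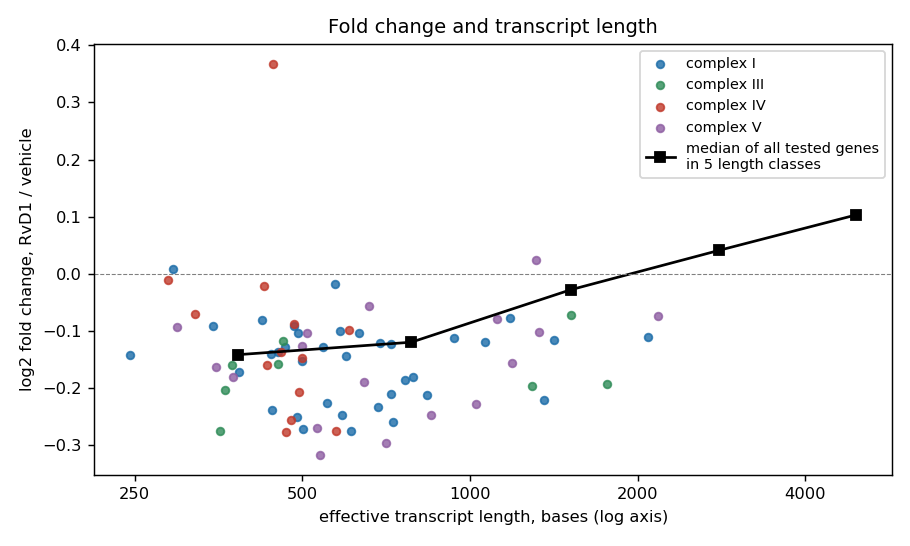
Log2 fold change (RvD1 over vehicle, edgeR) against effective transcript length in bases on a log axis. Colored points are the 74 tested members by complex, and black squares the medians of all tested genes in 5 length classes, from -0.14 under 500 bases to 0.10 above 4000.

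In complex I, the nuclear core subunits, which carry the flavin, the iron-sulfur clusters, and the quinone site, were compared with the accessory ones by their medians, and the difference was not tested. The median log2 fold change was -0.12 for the 7 core genes and -0.14 for the 29 accessory genes, and with the length trend removed it was -0.08 and -0.0030. Ndufs8, which holds iron-sulfur clusters (chromosome 19, 3908863 to 3912774), was at 149, 181, and 169 CPM with RvD1 and 190.4, 204, and 204 CPM with vehicle. All 3 RvD1 libraries were below all 3 vehicle libraries (log2 fold change -0.26, SE 0.10, unadjusted p = 0.0259 and adjusted p = 0.971 in edgeR). Ndufs7, its neighbor on the electron path, was at 133, 171, and 173 CPM with RvD1 against 179, 193, and 189.6 CPM, again without overlap (-0.23, SE 0.12). Ndufs3, of the same arm, was also without overlap, at -0.19.

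Ndufs1, Ndufv1, and Ndufv2 overlapped between groups. Ndufs1, the largest of the nuclear core subunits, was at 347, 422, and 401 CPM with RvD1 and 406, 426, and 430.4 CPM with vehicle, so that RvD1 replicate 2 lay inside the vehicle range. Ndufv1, which binds NADH, and Ndufv2 had log2 fold changes of -0.12 and -0.11. Of the 29 accessory genes, 28 were negative, from -0.28 for Ndufc2 to -0.02 for Ndufv3, and Ndufa3 was at 0.01 (SE 0.16). Ndufa4, at 311, 329, and 251 CPM with RvD1 and 300.3, 333, and 349.7 CPM with vehicle, had -0.14, and counting it with complex IV left that median at -0.14. In 10 of the 36 genes of complex I the groups did not overlap, all lower with RvD1, against 4.83% of all genes tested and 14.3% of genes under 1000 bases.

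In complex III all 8 genes had a negative log2 fold change, from -0.28 for Uqcrq, a small subunit also called ubiquinone-binding protein, to -0.07 for Uqcrc1. Uqcrfs1, the Rieske iron-sulfur protein, was at 279.9, 376, and 383 CPM with RvD1 and 363, 403, and 424 CPM with vehicle (-0.20, SE 0.13, unadjusted p = 0.168 in edgeR). Its RvD1 replicate 1 was far below the others and its 2 remaining RvD1 values lay within the vehicle range. Uqcrc1, a core protein, was at 549, 573, and 679 CPM and at 629, 657, and 607 CPM, with the highest value of all in RvD1 replicate 3. Uqcrc2, its partner, had the only groups without overlap in this complex, at 304, 338, and 336 CPM with RvD1 and 350.5, 395, and 374 CPM with vehicle.

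Among the tested complex IV genes, the well-expressed subunits had log2 fold changes between -0.28 and -0.02. Cox7a2 (chromosome 9, 79755361 to 79759878) was at 206, 219, and 187 CPM with RvD1 and 228, 256, and 259 CPM with vehicle, without overlap (-0.28, SE 0.10, unadjusted p = 0.0185 in edgeR). Cox8a (chromosome 19, 7215153 to 7217616) was at 332, 379.8, and 335 CPM and at 398, 435, and 417 CPM, also without overlap (-0.26, SE 0.09, unadjusted p = 0.02004). Upstream windows of both genes are among those printed with the isoforms. Cox5a and Cox5b, subunits on the matrix side, had unlike estimates. Cox5a was at 252, 319, and 285 CPM against 316, 363, and 358 CPM (-0.28, SE 0.11), and Cox5b at 209.9, 215, and 182 CPM against 199.9, 213, and 204 CPM (-0.02, SE 0.09). Cox5b had a positive fold change on the TPM and FPKM scales and with library totals only. That the fold changes of these 2 genes differ was not tested.

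The muscle isoforms gave no estimate precise enough to place them. Cox6a2, Cox7a1, and Cox8b had log2 fold changes of -0.10 (SE 0.34), -0.07 (SE 0.27), and -0.01 (SE 0.56), at levels of 0.333 to 3.64 CPM. Cox6b2, at 1.68, 0.821, and 0.721 CPM with RvD1 and 0.681, 1.38, and 0.434 CPM with vehicle, had the only fold change above 0.1 among the members (0.37, SE 0.54), and its groups overlapped. For the complex as a whole, the median without RvD1 replicate 3 was -0.08, and with the length trend removed it was 0.02.

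Complex V held the 2 lowest unadjusted p-values among the members, those of Atp5o and Atp5h. Atp5o, the stalk subunit that confers oligomycin sensitivity (chromosome 16, 91925214 to 91931687), was at 318, 385, and 356 CPM with RvD1 and 416, 461, and 424 CPM with vehicle, without overlap (log2 fold change -0.30, SE 0.10, unadjusted p = 0.0146 and adjusted p = 0.971 in edgeR). Its exons overlap those of another annotated gene of the same name and strand, and its expected counts were fractional. Atp5h, the d subunit of the stalk (chromosome 11, 115415689 to 115419962), was at 227, 249.7, and 218 CPM with RvD1 and 260.4, 291, and 285 CPM with vehicle (-0.27, SE 0.09, unadjusted p = 0.0170). Atp5g1, the c subunit gene with the largest estimate, was at 268, 359, and 349 CPM with RvD1 and 372, 412, and 433 CPM with vehicle (-0.32, SE 0.13). All 3 had every RvD1 value below every vehicle value, and in each the lowest library was RvD1 replicate 1 or 3.

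Of the catalytic head, Atp5b and Atp5a1 had smaller estimates than Atp5c1, a difference that was not tested. Atp5b was at 3319, 3737, and 3642 CPM with RvD1 and 3721, 4033, and 3725 CPM with vehicle (-0.10, SE 0.09), and Atp5a1, the α subunit, was at 1457, 1719.9, and 1697 CPM and at 1644, 1812, and 1676 CPM (-0.07, SE 0.10). In both genes the groups overlapped. Atp5c1, the γ subunit that turns inside the head, was at 619, 729, and 708 CPM with RvD1 and 754, 823, and 833 CPM with vehicle, without overlap (-0.23, SE 0.09). Of the other c subunit genes, Atp5g3 had -0.19 (SE 0.11) and Atp5g2 -0.06 (SE 0.18), and Atp5g2 was positive with the length trend removed and in the fits that omitted RvD1 replicate 3 or vehicle replicate 3. Atp5sl was at 0.02 (SE 0.15), and 6 of the 17 tested genes of complex V were without overlap, all lower with RvD1, against 4.83% of all genes tested and 14.3% of genes under 1000 bases.

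As a share of the transcript pool, the members took 1.88%, 2.04%, and 1.92% of expected counts in the libraries of RvD1 mice and 2.03%, 2.19%, and 2.14% in those of vehicle. On the TPM scale they summed to 43329 ± 1381 TPM (SD, n = 3) with RvD1 and 46112 ± 1429 TPM with vehicle, or 4.35% and 4.63% of the library. Complex I summed to 13473 ± 451 TPM with RvD1 and 14188 ± 525 TPM with vehicle. Complex III summed to 5832 ± 141 TPM and 6204 ± 235 TPM in the same order. Complex IV summed to 7492 ± 628 TPM and 7973 ± 241 TPM, and complex V, the highest of the 4, to 16532 ± 789 TPM and 17747 ± 521 TPM. The groups overlapped in complexes I, III, and IV and not in complex V, and the log2 ratio of group means of complex IV was -0.02 without RvD1 replicate 3. Since these sums add up genes chosen together, no test is given for them.

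**Figure D5:**
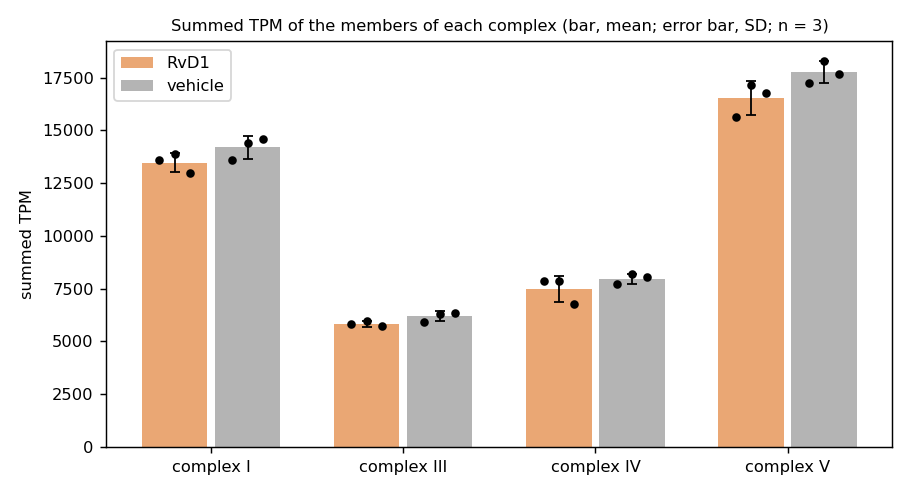
Summed TPM of the members of each complex, with points for the 6 mice, bars for group means, and error bars for the SD (n = 3). Vehicle means are above RvD1 means in the 4 complexes, by 371 to 1216 TPM, and the points of the groups overlap in complexes I, III, and IV.

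The genes around the members gave the following values. The 4 subunits of complex II, which feeds electrons from succinate, were all negative with a median log2 fold change of -0.12, and Sdha, the flavoprotein, with an effective length of 2764 bases, was at -0.03 (SE 0.08). Of the subunits outside the symbol rule, 6 of 7 tested were negative with a median of -0.19. Cox4i1 was at 1175, 1239, and 1237 TPM with RvD1 and 1367, 1406, and 1346 TPM with vehicle, without overlap (-0.22, SE 0.08, unadjusted p = 0.0233 in edgeR). Cyc1, the cytochrome c1 of complex III, was at -0.17 (SE 0.14). None of these genes had an adjusted p under 0.971.

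Assembly factors and regulators had medians nearer to that of all genes than the members had, though most assembly factors were negative. Of 14 complex I assembly factors 13 were negative, with a median log2 fold change of -0.10 and a median effective length of 1307 bases. Of 31 assembly factors of complexes II to V 25 were negative, with a median of -0.07 and a median length of 1165 bases. Of 15 regulators of mitochondrial biogenesis 7 were negative, with a median of 0.00, and none of these had an effective length under 1000 bases. Ppargc1a, the coactivator that drives mitochondrial biogenesis, was at 4.44, 6.61, and 4.98 TPM with RvD1 and 3.73, 5.13, and 4.50 TPM with vehicle (0.20, SE 0.22). Nrf1, whose core site was counted in the upstream windows, was at 0.09 (SE 0.13), and Tfam, which packages mitochondrial DNA, at -0.10 (SE 0.10). In all 3 the groups overlapped. In none of the 5 lists with tested genes did edgeR call a gene at an adjusted p under 0.05. The lists held 4, 7, 14, 31, and 15 tested genes. Among them 2 genes were lower and 1 higher at an unadjusted p under 0.05, against 1.64% and 1.83% of all genes.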

How the data were processed

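RNA-Seq values of MuSCs from 3 RvD1-treated and 3 vehicle-treated mice were used as deposited. Per the labels, STAR 2.5.0a and RSEM were run by the authors on the mm10 build. The annotation release was not given in the sources used here. The deposited expected counts are RSEM estimates without depth scaling, whereas the deposited TPM corrects for length and library total and the deposited FPKM for length and depth. A stray header line was removed, leaving 49671 genes.

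Expected counts were rounded and tested in R 4.3.3 with edgeR 4.0.16 (TMM, filterByExpr by group, quasi-likelihood test), with Benjamini-Hochberg adjustment over 14494 genes and a threshold of 0.05. This test replaces the limma-voom and sva procedure of the study as the main one, since its number of surrogate variables is not stated, and that procedure was run as an alternative (limma 3.58.1, sva 3.50.0, 1 surrogate variable). Standard errors are the fold change divided by the root of the F statistic. CPM values are TMM-scaled, and deviations used log2 CPM with a prior count of 2. Effective length was computed from expected counts and FPKM. Positions came from GENCODE M21 on GRCm38 and upstream windows from RefSeq.

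Samples were grouped by their labels. The labels give 1 library per mouse, so p-values measure the spread between mice. Other alternatives were DESeq2 1.42.0, other scaling factors, no count filter, robust estimation, a replicate block, TPM and FPKM with pseudocounts of 0.1 or 1, each library left out in turn, only protein-coding members, and Ndufa4 counted with complex IV. Removal of the length trend was added after seeing the data.

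The members and gene lists were chosen with earlier results of these data known. Named genes are the 3 of lowest unadjusted p per direction, the highest and lowest TPM of each complex, members of the isoform pairs, the 7 core genes of complex I, Uqcrfs1, Uqcrc1, Cyc1, Cox5a, Cox5b, Atp5a1, Atp5b, Atp5c1, Ppargc1a, Tfam, Nrf1, Cox4i1, and Sdha. Other names were added because of their values, and 1 gene is counted but not reported by name here. Tests were checked on simulated data.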

Additional observations from a re-analysis of the deposited data

Results flagged for a closer look

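The log2 ratio of Cox7b over Cox7b2 was 9.68 in vehicle replicate 1 and lay far below the other 5 libraries. The gap to its nearest neighbor was 0.845 of the whole range of the 6 values, above the critical value of 0.625 of Dixon's test, which chance exceeds in about 1 of 20 groups. Cox7b2 had 3 counts in that library and 0 in the others, so the ratio in the other 5 libraries rests on the pseudocount of 0.1 TPM. None of the other 10 isoform pairs had such a library.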

How the results depend on the processing

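Under 18 alternative settings, 0 members and 0 genes of the other lists passed an adjusted p of 0.05, and the smallest adjusted p of a named gene was 0.168 (limma-voom with 1 surrogate variable). The median log2 fold change of the members stayed negative throughout. The design has 3 mice per group. Leaving out 1 library brought the count of members at an unadjusted p under 0.05 as low as 0. In the check on simulated data 200 genes were altered, each by far more than any member changed here. Of these, edgeR recovered 197, with 13 false calls among 14494 genes. Recovery at log2 fold changes as small as those of the members was not tested.

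The 14 members lower with RvD1 at an unadjusted p under 0.05 became 27 of 79 with limma-voom and sva (which also gave 1 higher). They became 3 on log2(TPM + 0.1), 2 on log2(TPM + 1), and 0 with the length trend removed. In the same order, 5.32%, 1.06%, 1.08%, and 0.931% of all genes were lower at that threshold. Leaving out 1 library gave 0 to 22 (9 without RvD1 replicate 1, 22 without RvD1 replicate 2, 6 without RvD1 replicate 3, 0 without vehicle replicate 2, and 1 without vehicle replicate 3). The share of all genes in those fits was 2.21%, 2.79%, 1.88%, 0.731%, and 0.676%, in the same order. With a replicate block the count of members was 24, against 3.02% of all genes, with a smallest adjusted p of 0.791 for a member. Libraries of the same number correlated at 0.310, -0.0007, and 0.126 in their deviations, and the labels do not pair the mice, so the block was not used. Members whose groups do not overlap were 19 lower and 0 higher, against 4.83% and 4.8% of all genes. They became 10 and 1 with the length trend removed. With 1 library left out they became 19 to 54 and 0 to 1 (41 lower without RvD1 replicate 2, 54 without vehicle replicate 1). Smaller groups overlap less often by construction. The share of all genes without overlap was not computed with the length trend removed or with 1 library left out, so these counts have no background. With the length trend removed, 46 members were negative, with medians of -0.013 in all members, -0.017 in complex I, -0.0030 in its accessory genes, -0.039 in complex III, 0.017 in complex IV, and -0.059 in complex V. The cause of these changes was not tested, and that setting was chosen after seeing the data. The log2 ratio of summed levels was -0.14 by FPKM and -0.038 by median TPM for the members, and -0.18 by median TPM for complex V. With 5 libraries the sign test cannot go below 0.0625, so 0 isoform pairs could pass.

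Of 756 values of the 42 tested named genes, 706 kept their direction and 50, in 14 genes and all far from the threshold, changed sign. With the length trend removed the signs turned for Atp5g2 (0.062), Cox5b (0.14), Cox6a2 (0.029), Cox7a1 (0.12), Cox7b (0.063), Cox8b (0.16), Ndufa4 (0.016), Ndufb4 (0.062), and Uqcr11 (0.011). On log2(TPM + 0.1) and log2(TPM + 1) they turned for Atp5a1 (0.0023 on both), Cox5b (0.11 on both), Cox7a1 (0.028 and 0.025), Cox7b (0.025 on both), Ndufb4 (0.046 on both), and Sdha (0.058 on both). On log2(FPKM + 1) they turned for Cox5b (0.058) and Sdha (0.010). With library totals only they turned for Cox5b (0.015), Cox8b (0.029), and Sdha (0.0011). With sva they turned for Cox5b (0.0072), Cox7a1 (0.012), Ndufa3 (-0.00043), and Sdha (0.0029). Ndufa3 was also negative with limma-voom alone (-0.0034) and with the replicate block (-0.0093). With 1 library left out, signs turned for Cox6b2 (-0.099) and Ndufa3 (-0.12) without RvD1 replicate 1, for Cox6a2 (0.063), Cox8b (0.17), and Ndufa3 (-0.031) without RvD1 replicate 2, and for Atp5g2 (0.13), Atp5sl (-0.052), Cox5b (0.048), Cox7b (0.013), and Cox8b (0.26) without RvD1 replicate 3. They turned for Atp5sl (-0.0036), Cox6a2 (0.041), Cox8b (0.13), and Ndufa3 (-0.064) without vehicle replicate 1, for Cox7a1 (0.016) and Cox8b (0.14) without vehicle replicate 2, and for Atp5g2 (0.0042) and Cox7a1 (0.042) without vehicle replicate 3. At the other end of these fits stood Atp5g2 at -0.21, Cox5b at -0.066, Cox6a2 at -0.29, Cox6b2 at 0.94, Cox7a1 at -0.25, Cox7b at -0.17, and Cox8b at -0.61.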
